A study of Mus musculus with 19 samples.

Results

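The subunits of oxidative phosphorylation (OXPHOS) were followed in the RNA of retinal ganglion cells (RGCs) that project to the same side of the brain (iRGCs) or to the opposite side (cRGCs). The set held 97 of the 47069 genes counted, 84 of them in the nuclear genome and 13 in the mitochondrial genome. Members were the protein-coding genes whose symbol in the GRCm38 annotation begins with Nduf (the a, b, c, s and v series), Sdh, Uqcr, Cox4 to Cox8 or Atp5, and the protein-coding genes of the mitochondrial genome. The rule uses symbols and no measured value, and it was set with earlier results of these data known. Complex I had 37 nuclear and 7 mitochondrial members, complex II 4 nuclear ones, complex III 8 and 1, complex IV 18 and 3, and complex V 17 and 2. The symbols leave out a few true subunits and carriers, such as Ndufab1, Cyc1 and Cycs, and take in the assembly and coupling proteins Cox7a2l and Atp5s. Ndufa4 and Ndufa4l2 carry complex I names and are counted there, although Ndufa4 sits in complex IV.

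The embryos were C57/DBA F1 mice at E16.5, labelled WT, with males and females pooled. The paper itself names this strain for its electroporated embryos and gives no strain background for the sorted cells. All embryos used here carried a reporter in which Cre recombinase removes a stop cassette and switches on Sun1-GFP, a nuclear envelope protein fused to GFP. The iRGCs were GFP-positive cells sorted by flow cytometry from retinas with Slc6a4-Cre, and the cRGCs were those from Pou4f2-Cre retinas whose ventrotemporal (VT) region had been cut away. Each population gave 3 RNA-seq libraries, and the labels do not say which embryos entered a library, so the spread between libraries may be partly technical. Cre leaves its mark in the descendants of a cell too, and the Cre line, the dissected region and the population cannot be told apart in this design.

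Mitochondria make most of a neuron's ATP by OXPHOS. Complexes I and II take electrons from NADH and succinate, complexes III and IV pass them on to oxygen, and the proton gradient built on the way drives ATP synthase, complex V. All subunits of complex II are encoded in the nucleus, whereas the core of the other complexes combines nuclear subunits with a few made inside the mitochondrion. RGCs keep many mitochondria in their unmyelinated axons, and inherited optic neuropathies with mutations in mitochondrial complex I genes strike these cells.

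Genes received 28193178 to 33638083 reads in each library. Levels are given as CPM, counts scaled to library size after TMM normalization, and levels of single genes are compared with each other as TPM, counts divided by exon length and scaled to a fixed total in each library, without the TMM factors. Sums over a list or a complex are given in CPM unless TPM is named, and CPM gives long transcripts more weight. Differences are log2 fold changes (log2FC), positive where iRGCs were higher. The threshold was an adjusted p under 0.1 in edgeR's quasi-likelihood test, with Benjamini-Hochberg adjustment over the 15941 genes tested.

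The labelled cell type was compared with marker lists first, because the libraries were not alike. Of 12 RGC markers, 11 were lower in iRGCs, none was at 0, and their summed level was 2114, 2943 and 4655 CPM in iRGC libraries 1, 2 and 3, against 12020, 10938 and 13090 CPM in the cRGC libraries. Nefm had the highest CPM of them. All 10 markers of retinal progenitors were higher in iRGCs, with Ccnd1 the highest in CPM. Their sums were 7034, 5749 and 5432 CPM against 610, 1637 and 963 CPM. Of these markers, the study reports Lhx2, Sox2 and Sox9 as expressed in iRGCs. The 5 markers of photoreceptor precursors were all higher as well, at 784, 611 and 582 CPM against 98.3, 194 and 135 CPM, led by Otx2, as were 4 of the 6 amacrine and horizontal cell markers, a list that summed to 452, 427 and 477 CPM against 299, 335 and 427 CPM. The remaining 2, Onecut2, the highest of the list in CPM, and Onecut1, had log2FC values of -0.56 and -0.58 that did not pass. Of the endothelial markers 6 of 10 could be tested and all 6 were higher. The list summed to 474, 731 and 434 CPM against 86.3, 108 and 70.2 CPM. Kdr, the highest, was alone at 366, 320 and 418 CPM in iRGCs and at 83.7, 103 and 67.6 CPM in cRGCs. In iRGC library 3, Cdh5, Pecam1 and Tie1 were at 0.158, 0.284 and 0.0631 CPM, and Cldn5 was at 11.8 CPM. Cdh5, Tie1 and Adgrf5 had no count in the cRGC libraries. Of the mural markers 5 of 10 could be tested and 3 were higher. The list summed to 135, 277 and 108 CPM against 20.8, 31.2 and 22.9 CPM. Notch3, the highest, was alone at 113, 117 and 83.5 CPM in iRGCs and at 17.1, 26.7 and 18.6 CPM in cRGCs. Rgs5 was at 3.76, 93.8 and 2.24 CPM in iRGCs. Kcnj8, Higd1b and Acta2 had no count in cRGCs. The erythroid list, led by Hbb-bs, summed to 12.2, 92.7 and 15.2 CPM in iRGCs and to at most 5.11 CPM in cRGCs, with 4 of its 4 tested genes higher. The microglial list, led by Csf1r, summed to 11.7, 19.1 and 12.7 CPM against at most 3.59 CPM, with 2 of 4 tested genes higher. Some of these calls were lost in at least 1 of the 16 other fits, with highest adjusted p-values of 0.50 for Cd34, 0.46 for Pecam1, 0.33 for Adgrf5 and 0.24 for Flt1 among the endothelial markers. The same held for Rgs5 (0.42) of the mural list, Hbb-bt (0.46), Hbb-bs (0.21) and Hba-a1 (0.20) of the erythroid list, C1qa (0.19) of the microglial list and Nrl (0.14) of the photoreceptor list. Library 2 of the iRGCs thus carried the most vascular and blood markers, and library 3 the most RGC markers among the iRGC libraries. The part of these cell types in the results on OXPHOS genes was not tested, and in bulk RNA fewer cells of a type and less RNA per cell cannot be told apart.

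Nuclear OXPHOS genes were expressed at close levels in iRGCs and cRGCs. Of the 84 nuclear members 80 were tested, and 4 were higher and 5 lower in iRGCs, which is 11.3% of them, where 46.4% of all tested genes were past the threshold. By direction, 23.3% of all tested genes were higher and 23.1% lower. The median log2FC of the 80 was -0.05, with 36 above and 44 below 0, against a median of -0.0031 for all tested genes. In absolute terms the median was 0.17 for the nuclear members and 0.60 for all tested genes, and 91.3% of the nuclear members lay within 0.5 of 0, against 43.8% of all genes. The standard errors were not larger, with medians of 0.17 and 0.22. For 70 of the 80 the 95% interval of the log2FC lay wholly between -1 and 1, and for 31 of them between -0.5 and 0.5. The CPM of the 3 iRGC libraries did not overlap those of the 3 cRGC libraries for 11 nuclear members, when 55.3% of all tested genes showed no overlap.

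**Figure D1:**
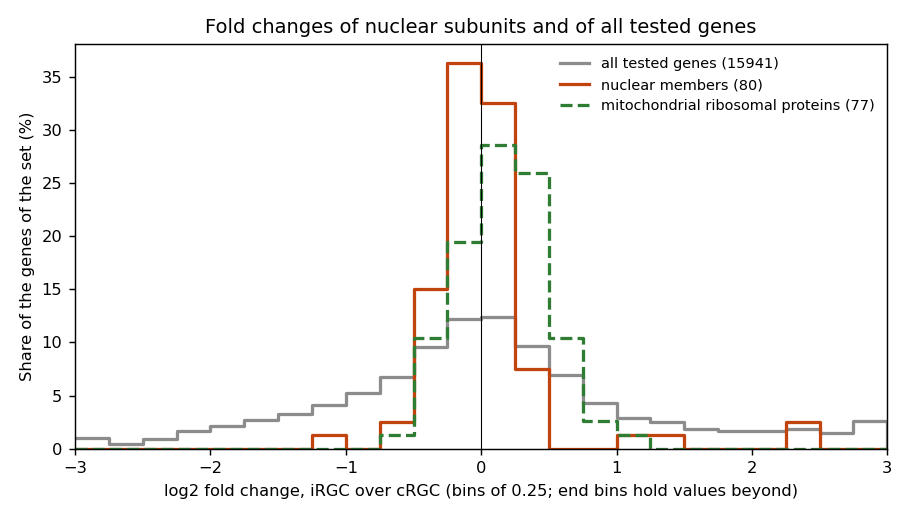
Share of the genes of a set (y axis, %) in each bin of 0.25 of the log2FC of iRGCs over cRGCs (x axis), for all 15941 tested genes, the 80 tested nuclear OXPHOS members and the 77 tested mitochondrial ribosomal protein genes. The nuclear members gather around 0 in a narrow peak, and the ribosomal protein genes peak to the right of 0 with a median of 0.19.

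The number of members past the threshold depended on single libraries and on the scaling. Without iRGC library 3, 18 nuclear members were lower and 2 higher, beside 24.1% of all tested genes lower and 21.2% higher in that fit. Without iRGC library 2, 1 was lower and 3 were higher, beside 20.2% and 19.8% of all tested genes. Scaling by the library total alone in place of TMM gave 18 higher and 2 lower, and moved the median of all tested genes to 0.20 and that of the nuclear members to 0.15. In that fit 32% of all genes were higher and 17.8% lower. The 3 members that passed in all 17 fits, the main one included, were Ndufa4l2, Cox4i2 and Cox5a.

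Among the 37 nuclear members of complex I, which feeds electrons from NADH into the chain, 1 rose and 3 fell. That was 10.8% of them, beside 46.4% of all tested genes past the threshold. Core subunits of the nuclear genome, among them Ndufs1, Ndufs3, Ndufs7, Ndufs8, Ndufv1 and Ndufv2, most of which carry the flavin or iron-sulphur clusters, had log2FC values from -0.24 to 0.24, none past the threshold. The accessory subunits that did not pass ranged from -0.42 for Ndufv3 to 0.39 for Ndufa7. Ndufv3 was at 26.8, 31.6 and 52.8 CPM in iRGCs and at 44.5, 55.0 and 49.3 CPM in cRGCs, with library 3 of the iRGCs among the cRGC values.

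All 3 members of complex I that fell are accessory subunits. Ndufa1 (chrX:37187588-37191163), a small membrane subunit needed for assembly, was at 13.2, 17.2 and 30.8 CPM in iRGCs and at 55.1, 55.3 and 23.4 CPM in cRGCs. Library 3 of the cRGCs lay below library 3 of the iRGCs, so the populations overlapped. Its log2FC was -1.13 (SE 0.39, adjusted p = 0.045, edgeR), and the adjusted p was 0.13, 0.14, 0.13 and 0.13 without iRGC library 1, iRGC library 2, cRGC library 1 and cRGC library 2. Ndufa1 was also the most abundant nuclear member of the complex per length, at a mean of 335 TPM. Ndufb8 (chr19:44548572-44555440), a subunit of the membrane arm, was at 48.1, 45.2 and 54.5 CPM against 60.0, 68.3 and 66.1 CPM, with no overlap. It fell by 0.39 on the log2 scale (SE 0.12, adjusted p = 0.032, edgeR), and 4.26% of its exonic bases are shared with other genes. Ndufb2 (chr6:39592574-39603382), another membrane arm subunit, was at 24.8, 17.1 and 20.9 CPM against 31.9, 26.6 and 30.0 CPM, again without overlap, and fell by 0.49 (SE 0.18, adjusted p = 0.062, edgeR). Both calls were lost when single libraries were left out, at adjusted p-values up to 0.12 for Ndufb8 and 0.18 for Ndufb2, and with library totals in place of TMM, at 0.23 and 0.25.

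The member that rose, Ndufa4l2 (chr10:127514967-127517154), is a paralogue of Ndufa4 that is known to be induced in low oxygen and to be abundant in pericytes. Its CPM were 39.1, 22.0 and 76.1 in iRGCs and 5.42, 16.8 and 6.03 in cRGCs. The lowest iRGC library was above the highest cRGC library, by a small margin. The log2FC was 2.28 (SE 0.54, adjusted p = 0.0092, edgeR), with a range of 1.69 to 3.00 when single libraries were left out, the highest without cRGC library 2. Ndufa4 itself was at 62.8, 78.3 and 89.8 CPM against 79.4, 103 and 105 CPM, with a log2FC of -0.32 (SE 0.16) that did not pass (adjusted p = 0.16, edgeR). It was past the threshold as lower with replicate number as a block, without iRGC library 3 and without cRGC library 1.

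Complex II, succinate dehydrogenase, links the citric acid cycle to the chain. Sdha (chr13:74322254-74350280), its flavoprotein, was at 200, 239 and 219 CPM in iRGCs and at 156, 193 and 183 CPM in cRGCs, without overlap, and rose by 0.31 on the log2 scale (SE 0.12, adjusted p = 0.069, edgeR). The call was lost without iRGC library 2 (adjusted p = 0.21), iRGC library 3 (0.101), cRGC library 1 (0.23) or cRGC library 3 (0.13). The iron-sulphur subunit Sdhb had a log2FC of -0.21 (adjusted p = 0.19), and the membrane anchors Sdhc and Sdhd had -0.17 and 0.22 (adjusted p = 0.29 and 0.25). Per length Sdhd was the most abundant of the 4, at 222 TPM, with Sdha at 214 TPM.

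None of the 8 members of complex III, cytochrome bc1, was past the threshold in edgeR, where 46.4% of all tested genes were. None of the 8 had an unadjusted p under 0.05. DESeq2 and limma voom called none of them either. With library totals in place of TMM, Uqcr10, Uqcrc2 and Uqcrfs1 were past the threshold as higher in iRGCs, and without iRGC library 3 Uqcrc1 was past it as lower. Their log2FC values ran from -0.20 for Uqcr11 to 0.23 for Uqcr10. The Rieske protein Uqcrfs1, the most abundant per length at 325 TPM, was at 103, 100 and 107 CPM against 88.1, 99.0 and 101 CPM. The 2 large core proteins differed little, with log2FC values of -0.17 for Uqcrc1 and 0.14 for Uqcrc2, both with the 95% interval between -0.43 and 0.41.

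Complex IV, cytochrome c oxidase, has several subunits with paralogues that are restricted to muscle, heart, testis or lung. Of its 18 nuclear members 14 were tested, of which 1 rose and 2 fell, or 21.4%, beside 46.4% of all tested genes. The 4 not tested were Cox6a2 and Cox8b, the forms of heart and skeletal muscle, and Cox7b2 and Cox8c, the forms of testis, which had no count in any library apart from a low count of Cox7b2 in iRGC library 3 (0.063 CPM). Cox7a1 of muscle, at 0 to 1.27 CPM, and Cox6b2 of testis, at 2.78 to 6.49 CPM, were low, and neither was past the threshold. Their general counterparts Cox6a1, Cox6b1, Cox7a2, Cox7b and Cox8a were far more abundant, from 156 TPM for Cox7b to 578 TPM for Cox6b1, and Cox4i1 led the complex with 671 TPM.

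Cox5a (chr9:57521274-57532426), a subunit on the matrix side, had the lowest adjusted p of all members. Its CPM were 73.5, 63.3 and 81.5 in iRGCs and 106, 109 and 113 in cRGCs, and each cRGC library was above each iRGC library. The log2FC was -0.59 (SE 0.12, adjusted p = 0.0046, edgeR), with adjusted p-values of at most 0.022 in the other 16 fits. Of its exonic bases 12.8% are shared with Gm26631. Cox6b1, on the other side of the membrane, was at 75.3, 78.3 and 90.9 CPM against 96.3, 110 and 108 CPM, without overlap, and fell by 0.36 (SE 0.12, adjusted p = 0.037, edgeR). Without iRGC library 2, cRGC library 2 or cRGC library 3 its adjusted p was 0.12, 0.12 and 0.11, and with library totals in place of TMM it was 0.28. Cox6a1, Cox6c and Cox7b had values of -0.30, -0.34 and -0.26 that did not pass, whereas Cox5b was at 0.17, Cox7c at 0.17, Cox8a at 0.06, Cox7a2l at 0.05, Cox4i1 and Cox7a2 at -0.09.

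The increase in complex IV was that of Cox4i2 (chr2:152754173-152765037), the paralogue of Cox4i1 known from lung and pericytes and for its part in oxygen sensing. It was at 22.4, 17.5 and 39.4 CPM in iRGCs and at 1.58, 9.56 and 4.78 CPM in cRGCs. All iRGC libraries were above all cRGC libraries, and the log2FC was 2.31 (SE 0.57, adjusted p = 0.011, edgeR), with a range of 1.87 to 3.05 when single libraries were left out, again highest without cRGC library 2. The order of the 6 libraries was the same for Cox4i2 and Ndufa4l2, with iRGC libraries 3, 1 and 2 followed by cRGC libraries 2, 3 and 1.

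**Figure D2:**
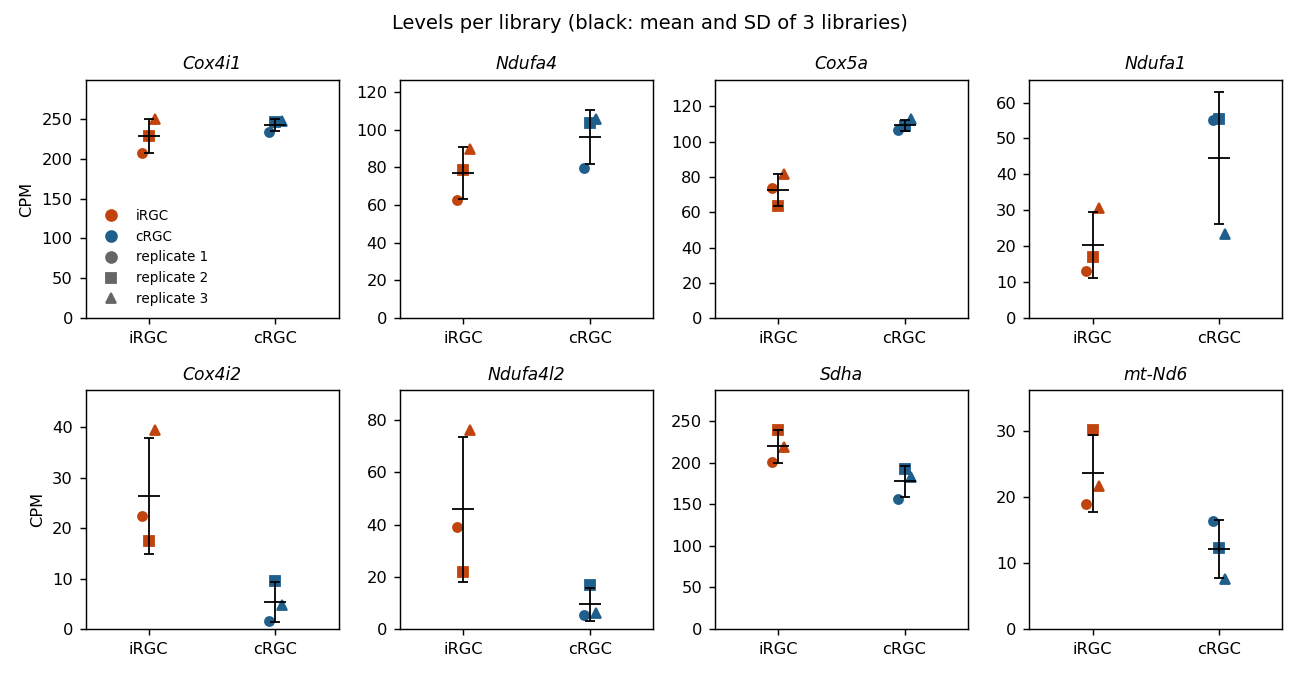
Level in CPM (y axis, from 0) of 8 OXPHOS genes in each library of iRGCs (orange) and cRGCs (blue), with circles, squares and triangles for replicates 1, 2 and 3 and black bars for mean and SD. Cox4i2, Ndufa4l2, Sdha and mt-Nd6 are higher in all iRGC libraries, Cox5a is lower in all of them, and Ndufa1, Ndufa4 and Cox4i1 overlap.

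The markers of other cell types were set beside these 2 genes by the order of their libraries. The order of both genes within the iRGCs was found in 2 of 10 progenitor markers, 3 of 6 amacrine and horizontal cell markers, 1 of 10 endothelial and 1 of 12 RGC markers, and in none of the mural, erythroid, microglial and photoreceptor lists. The progenitor markers Lhx2 and Fabp7 had it over all 6 libraries. So did 3 of 78 mitochondrial ribosomal protein genes, of which 18 had the order within the iRGCs. Of 46 assembly factors of OXPHOS, 2 had the order within the iRGCs and 0 had it over all 6 libraries. How often any gene has this order was not tested. Lhx2 was at 241, 200 and 252 CPM in iRGCs and at 27.3, 52.7 and 31.7 CPM in cRGCs, and Fabp7 at 44.3, 25.9 and 58.7 CPM against 2.50, 15.5 and 7.10 CPM. The progenitor sum, most of it from other genes, was lowest in library 3 among the iRGCs, and among the cRGCs it was highest in library 2 and lowest in library 1, as both genes were. Rgs5, a pericyte gene, was at 3.76, 93.8 and 2.24 CPM in iRGCs and the endothelial gene Cdh5 at 15.2, 81.3 and 0.158 CPM, both highest in library 2, whereas the endothelial gene Kdr was at 366, 320 and 418 CPM. Of the 11 genes known to be induced in low oxygen, 4 had the order of both genes within the iRGCs and 1, Mxi1, over all 6 libraries. Without iRGC library 2 the log2FC values were 2.54 for Cox4i2 (adjusted p = 0.017, edgeR) and 2.62 for Ndufa4l2 (adjusted p = 0.0074, edgeR), and without iRGC library 3 they were 1.90 (adjusted p = 0.034) and 1.69 (adjusted p = 0.026). The part of any of these cell types in either fold change was not tested.

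The balance of paralogues within a library was taken as the share of a form in the counts per kilobase of its family, which does not depend on library scaling. Cox4i2 made up 17.5%, 13.1% and 23.7% of Cox4i1 and Cox4i2 together in iRGCs and 1.31%, 7.09% and 3.66% in cRGCs, with means of 18.1% ± 5.34 and 4.02% ± 2.91 (SD, n = 3; two-sided exact permutation test p = 0.1). Ndufa4l2 made up 44.0%, 26.1% and 51.7% of its pair with Ndufa4 in iRGCs and 7.93%, 17.0% and 6.74% in cRGCs (40.6% ± 13.1 against 10.5% ± 5.60, SD, n = 3; exact permutation p = 0.1). The share of Cox7a1 in its pair with Cox7a2 was 1.89% ± 1.65 against 2.34% ± 1.82 (SD, n = 3; exact permutation p = 0.9). With 3 libraries against 3 the smallest p is 0.1, so none could pass. The values adjusted over the 6 shares tested were 0.2 for Cox4i2 and Ndufa4l2.

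Of the 17 members of complex V, ATP synthase, 1 rose, or 5.88%, beside 46.4% of all tested genes past the threshold, and 16 did not pass. The catalytic head was abundant and, in the main fit, level. Atp5a1 and Atp5b, its alpha and beta subunits, were the most abundant nuclear members per length, at 943 and 904 TPM. Atp5b was at 852, 852 and 942 CPM in iRGCs and at 768, 872 and 895 CPM in cRGCs, with a log2FC of 0.06 and a 95% interval from -0.18 to 0.30. For Atp5a1 the value was -0.05 and the interval -0.29 to 0.19. With library totals in place of TMM, Atp5b was past the threshold as higher in iRGCs. The small epsilon subunit Atp5e (chr2:174461072-174464105) was at 65.1, 60.7 and 64.3 CPM against 42.4, 54.3 and 54.1 CPM, without overlap, and rose by 0.33 (SE 0.13, adjusted p = 0.078, edgeR), a call that was lost in 5 of the 6 fits with 1 library left out. Subunits of the stalks that join head and membrane did not pass in the main fit. Their log2FC values were -0.28 for Atp5o, -0.24 for Atp5f1, -0.04 for Atp5h, -0.04 for Atp5d, 0.06 for Atp5c1 and 0.11 for Atp5j. Without iRGC library 3, Atp5o and Atp5f1 were past the threshold as lower, and Atp5f1 also with protein-coding genes alone. Library totals in place of TMM put Atp5c1 and Atp5j past it as higher.

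The c ring of ATP synthase is built from 1 protein encoded by 3 genes, Atp5g1, Atp5g2 and Atp5g3. Atp5g3 supplied 97.2% ± 0.871 of their counts per kilobase in iRGCs and 97.8% ± 0.150 in cRGCs (SD, n = 3; exact permutation p = 0.3). Atp5g1 had 1.28% ± 0.192 and 1.66% ± 0.199 (exact permutation p = 0.1), and Atp5g2 had 1.55% ± 1.06 and 0.537% ± 0.340 (exact permutation p = 0.2), n = 3 each. The counts of Atp5g2 are incomplete, since 88.4% of the 50-base windows of its spliced transcript occur elsewhere in the genome. Such windows give reads with more than 1 place, and only reads with a unique place were counted.

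Atp5g2 was the extreme of 7 nuclear members with over 50% of their transcript repeated, with Atp5l (84.0%), Ndufs5 (80.0%), Cox7c (71.5%), Atp5h (67.9%), Uqcrb (61.7%) and Cox7a2l (59.5%). Their median level was 36.3 TPM, against 144 TPM for the other 73 tested members. Atp5l, the g subunit of ATP synthase, was listed at 0 to 1.83 CPM although it is a component of every ATP synthase. Reads on bases that genes share can also be lost, since the counting set 0.618% to 0.649% of tallied alignments aside as ambiguous. Of the members 12 share over 10% of their exonic bases with another gene, with Atp5o (47.9%), Ndufb6 (39.0%) and Ndufa13 (30.0%) the highest. None of these 3 was past the threshold. Levels of the repeated genes are lower bounds, and a fold change of Atp5l or Atp5g2 rests on few reads.

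**Figure D3:**
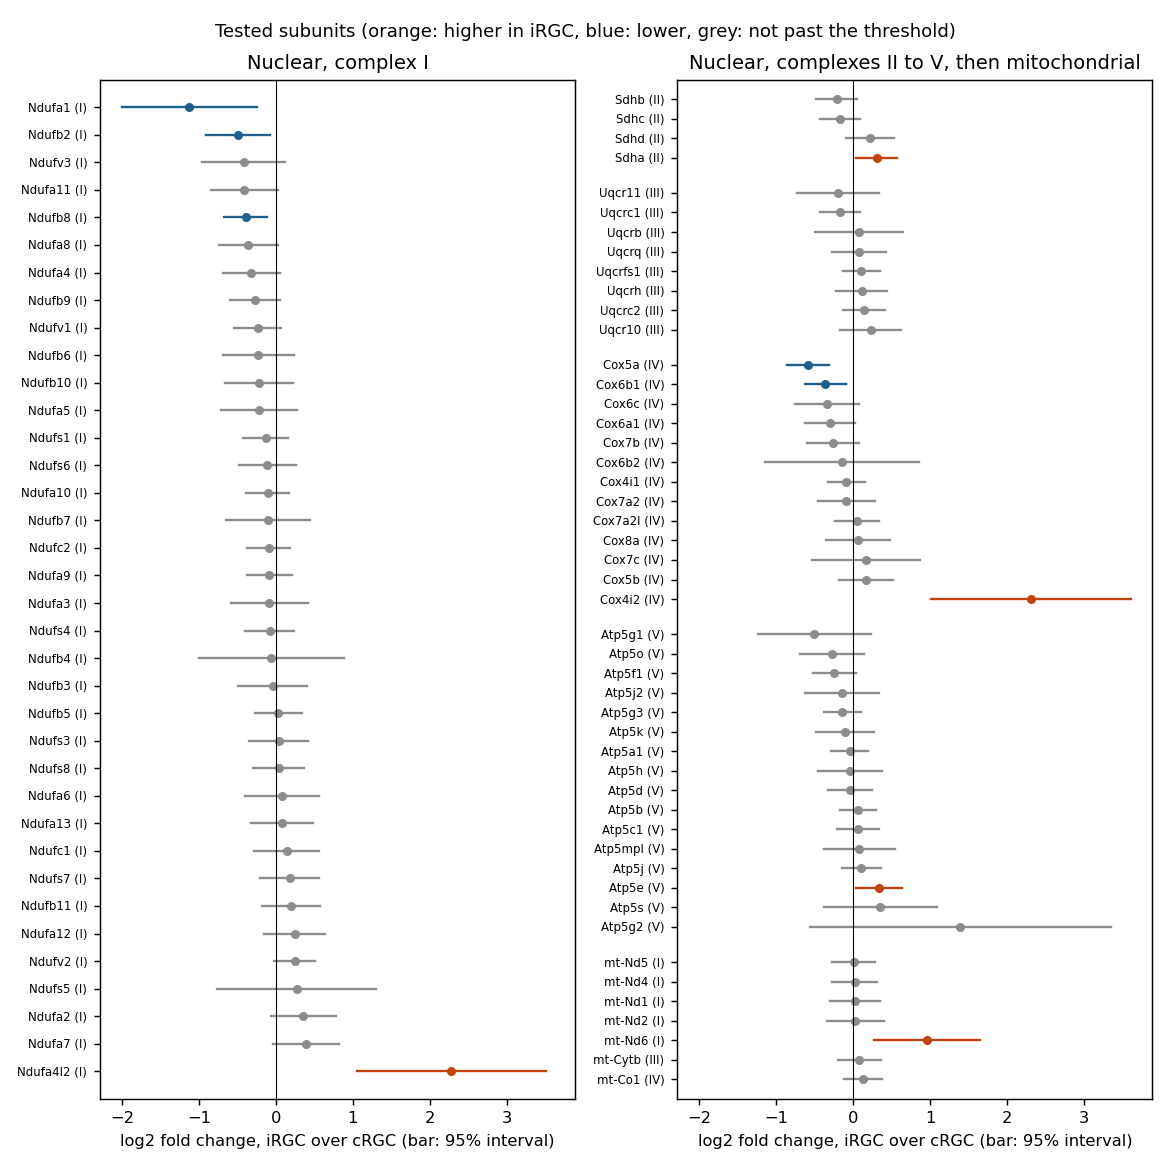
The log2FC of iRGCs over cRGCs (x axis) for 84 of the 87 tested OXPHOS genes (y axis, complex in brackets), with the 95% interval as a bar. Orange marks genes past the threshold and higher in iRGCs, blue those lower, and grey the rest. Left out are Atp5l and Cox7a1, whose intervals reach beyond -2 and 2, and 1 gene that is not reported here, and most of the other intervals cross 0 and stay within 1 of it.

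Summed over the genes of a complex, nuclear transcripts differed by less than their spread in most cases. All nuclear members together made 5293, 5529 and 6330 CPM in iRGCs and 5429, 6071 and 6055 CPM in cRGCs (5717 ± 544 against 5852 ± 366, SD, n = 3). Complex V had the largest sum in CPM, with 2350 ± 188 CPM in iRGCs and 2370 ± 159 CPM in cRGCs. Complex I followed with 1621 ± 202 and 1692 ± 112 CPM, complex IV with 736 ± 89.0 and 821 ± 44.8 CPM, complex III with 556 ± 38.2 and 543 ± 35.9 CPM and complex II with 454 ± 35.1 and 426 ± 31.6 CPM (SD, n = 3). In CPM the populations overlapped in each sum. For complex IV the lowest and highest iRGC libraries were at 683 and 838 CPM and the cRGC libraries at 770 to 856 CPM. Taken as TPM, the means were higher in iRGCs for every complex, by log2 ratios of 0.02 for complex IV to 0.24 for complex II, whereas the CPM gave -0.16 and 0.09 for these. TPM lacks the TMM factors, and library totals without these factors gave log2 ratios of 0.041 and 0.29 for complexes IV and II. On the TPM scale the libraries of the populations did not overlap for complexes II, III and V, with means of 788 against 667, 1520 against 1295 and 3860 against 3498 TPM, and complex I had the largest sum, at 4907 and 4689 TPM. These sums were not tested.

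**Figure D4:**
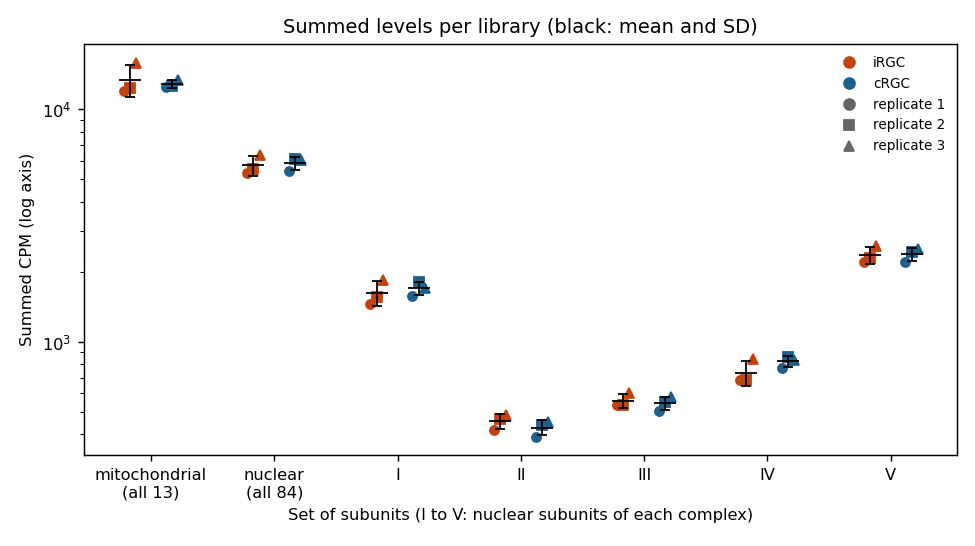
Summed CPM (y axis, log axis) of the 13 mitochondrial members, of the 84 nuclear members and of the nuclear members of complexes I to V, for each library of iRGCs (orange) and cRGCs (blue), with mean and SD in black. On this scale the libraries of both populations overlap in each set, and iRGC library 3 (triangle) is the highest of the iRGCs.

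The mitochondrial genome encodes 13 subunits, the proton-pumping and electron-transferring cores. Their counted level was higher than that of the 84 nuclear members, at 11918, 12328 and 15813 CPM in iRGCs and 12482, 12605 and 13330 CPM in cRGCs. This was 1.15% to 1.62% of all counts. The sums overlapped on this scale, with a log2 ratio of 0.06 between the means. In TPM, without the TMM factors, they did not, at 47140 to 56680 in iRGCs and 42255 to 44303 in cRGCs, and library totals alone gave a log2 ratio of 0.26. Nearly all of it came from 7 genes. Per length mt-Cytb, the only mitochondrial subunit of complex III, was the highest at 13636 TPM, followed by mt-Nd1 at 10879, mt-Co1 at 7913, mt-Nd2 at 5965, mt-Nd5 at 4291 and mt-Nd4 at 4017 TPM, and mt-Nd6 was far below at 156 TPM. The other 6, mt-Co2, mt-Co3, mt-Atp6, mt-Atp8, mt-Nd3 and mt-Nd4l, were listed at 0 to 1.04 CPM and stayed below the filter on low counts. Yet transcripts of cytochrome oxidase and ATP synthase subunits belong to the same polycistronic RNA as the rest, apart from mt-Nd6.

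The genes with next to no counts were those with an exact or nearly exact second copy in the reference. In GRCm38 the bases chr1:24611535-24616184 match positions 6394 to 11042 of the mitochondrial genome on the minus strand, which is 28.5% of its 16299 bases. The copy differs by 1 substitution and a length difference of 1 base. Of the 50-base windows of mt-Co2, mt-Co3, mt-Atp6, mt-Atp8 and mt-Nd4l 100% occurred elsewhere, and 99.0% of those of mt-Nd3. For mt-Nd4 the share was 62.2%, for mt-Co1 51.1%, for mt-Nd2 8.29% and for mt-Nd5 7.61%, and for mt-Nd1, mt-Nd6 and mt-Cytb 0%. The first 64 bases of mt-Co2 (chrM:7013-7076) are shown because they stand for the whole gene, with the start codon in capitals, above the same stretch of chr1:24615502-24615565 on the minus strand.
mt-Co2: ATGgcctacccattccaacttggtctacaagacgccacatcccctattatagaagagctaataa
chromosome 1: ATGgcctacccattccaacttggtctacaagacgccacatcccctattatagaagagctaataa
The only substitution lies in mt-Nd3 and is T9461C, with the mitochondrial base first, the position counted from 1 at the start of the mitochondrial reference, and the base of the copy last. The 64 bases around it are chrM:9429-9492 and chr1:24613086-24613149 (minus strand), with the differing base in capitals.
mitochondrial: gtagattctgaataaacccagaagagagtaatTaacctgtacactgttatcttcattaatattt
chromosome 1: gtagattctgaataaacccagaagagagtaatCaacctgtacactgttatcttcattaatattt
A read that covers this position is the only kind that can tell the 2 loci apart within the aligned stretch, apart from the length difference. The low counts of these 6 genes therefore cannot be read as low expression, and mt-Co1 and mt-Nd4 could be counted only in part. Per 1000 unique windows mt-Co1 had a mean of 3771 CPM, mt-Cytb 3218, mt-Nd1 2595 and mt-Nd4 2494 CPM, so the order by this measure puts mt-Co1 first.

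**Figure D5:**
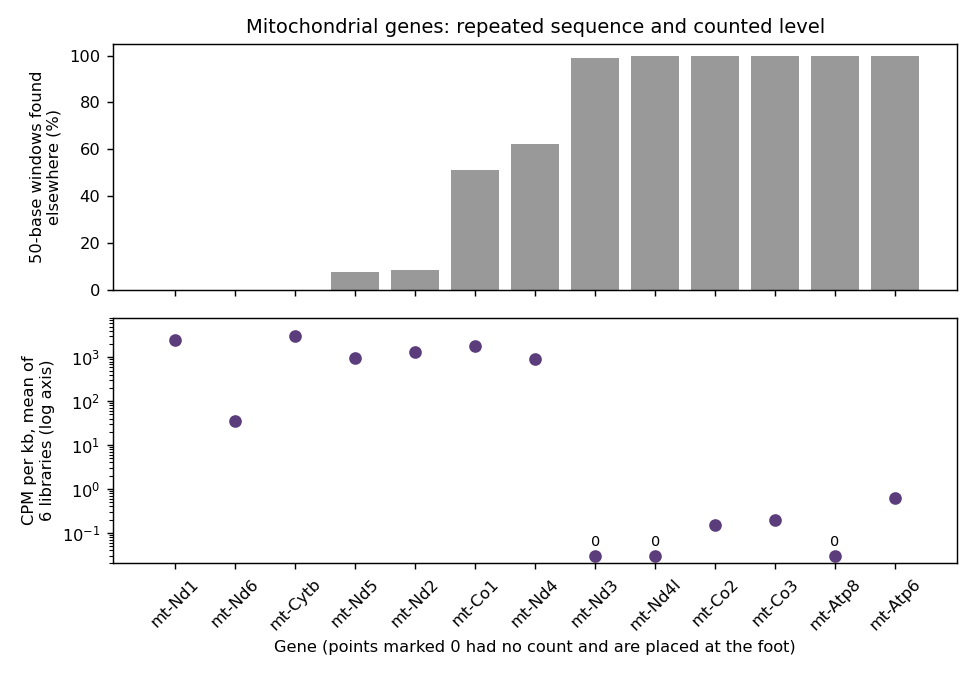
The 13 mitochondrial genes in order of the share of their 50-base windows found elsewhere in the reference (upper panel, %), and their mean level over the 6 libraries in CPM per kilobase (lower panel, log axis). The 6 genes with 99.0% or more of their windows repeated lie below 1 CPM per kilobase, and the other 7 lie between 34.5 and 3080 CPM per kilobase.

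Of the 7 mitochondrial genes tested, 6 did not pass and 1 was higher in iRGCs, beside 46.4% of all tested genes past the threshold. The log2FC values of mt-Nd5, mt-Nd4, mt-Nd1, mt-Nd2, mt-Cytb and mt-Co1 were 0.01, 0.02, 0.02, 0.03, 0.08 and 0.13, with adjusted p-values of 0.39 to 0.96 in edgeR and 95% intervals within -0.34 and 0.40. Of these 6, 5 turned below 0 without iRGC library 3, where the values of mt-Nd1 and mt-Nd2 were -0.17 and -0.21 and mt-Nd2 was past the threshold as lower in iRGCs (adjusted p = 0.095, edgeR). mt-Cytb was at 3226, 3384 and 4259 CPM against 3356, 3328 and 3589 CPM, and mt-Co1 at 2680, 2695 and 3264 CPM against 2587, 2628 and 2685 CPM. In both genes iRGC library 3 stood above the other 5 libraries.

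The gene that rose was mt-Nd6 (chrM:13552-14070), the only one of the 13 encoded on the light strand, whose RNA is known for its short or missing poly(A) tail. It had 590, 977 and 691 reads in iRGCs and 428, 358 and 235 reads in cRGCs, with means of 23.7 ± 5.84 and 12.1 ± 4.44 CPM (SD, n = 3) and no overlap. The log2FC was 0.96 (SE 0.30, adjusted p = 0.032, edgeR), and without iRGC library 2 it was 0.75 with an adjusted p of 0.12. The strand setting of the counting is not given in the sources used here, so reads of mt-Nd6 and of RNA antisense to it cannot be told apart. It shares 2.70% of its bases with mt-Nd5.

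Nuclear and mitochondrial subunits lay close together where both could be measured, with median log2FC values of -0.05 over 80 nuclear and 0.03 over 7 mitochondrial genes. The ratio of the summed mitochondrial to the summed nuclear counts was 2.25, 2.23 and 2.50 in iRGCs and 2.30, 2.08 and 2.20 in cRGCs (2.33 ± 0.149 against 2.19 ± 0.112, SD, n = 3), and the populations overlapped. The ratio lacks the 6 uncounted mitochondrial genes and part of the repeated nuclear ones, which would move it in opposite directions. By library totals alone 3 of the 7 mitochondrial genes were higher, mt-Co1, mt-Cytb and mt-Nd6, beside 32% of all tested genes. The median of the 7 was 0.22 in that fit, beside 0.20 for all tested genes.

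Several transcription factors that are known to bind promoters of nuclear OXPHOS genes were higher in iRGCs. Of 11 regulators of mitochondrial biogenesis 10 were tested, and 5 rose and 5 did not pass, or 50% higher, beside 23.3% of all tested genes higher and 46.4% past the threshold in either direction, with a median log2FC of 0.36. Gabpa, the DNA-binding part of GABP, was at 115, 104 and 113 CPM in iRGCs and at 50.8, 58.0 and 53.5 CPM in cRGCs, a log2FC of 1.03 (SE 0.11, adjusted p = 0.000254, edgeR). Gabpb2 rose by 1.52, Yy1 by 0.53, Nrf1 by 0.49 and Gabpb1 by 0.49, none of them with overlapping libraries. The coactivators Ppargc1a and Ppargc1b were low, at 5.07 to 7.27 and 0.662 to 1.42 CPM, and did not pass. Atp5j shares 12.7% of its exonic bases with Gabpa and had a log2FC of 0.11.

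Words of these factors were searched on both strands of the RefSeq promoters of GRCm38, each with 250 bases before and 50 after a start site. The words were the Nrf1 word, CCGGAAG for Gabpa and other ETS factors, and the YY1 word, none of which contains another. Of the 84 nuclear members 66 had a promoter in the table. The Nrf1 word was in 25.8% of these genes and in 5.19% of all 27025 genes, the ETS word in 24.2% and 9.93%, the YY1 word in 6.06% and 0.755%, and any of them in 48.5% and 14.5%. The 27025 genes include genes too low to be tested here. The shares among tested genes alone were not taken, so the contrast may not be particular to OXPHOS genes. Among the nuclear members not in the table were Atp5a1, Atp5f1, Atp5mpl, Atp5s, Cox4i1, Cox4i2, Cox6a2, Cox6c, Cox8c, Ndufa2, Ndufa4l2, Ndufb9, Ndufs1, Sdhc, Uqcrb, Uqcrc2 and Uqcrq. The 32 tested members with a word had a median log2FC of -0.07 with 3 past the threshold, and the 32 without had -0.09 with 4 past it. The promoters of Sdha, which rose, and Cox6b1, which fell, are shown as examples of each direction, with the words in capitals. Sdha (chr13:74350191-74350490, minus strand) has the Nrf1 word at 3 places, and Cox6b1 (chr7:30626065-30626364, minus strand) has the ETS word on the opposite strand.
Sdha: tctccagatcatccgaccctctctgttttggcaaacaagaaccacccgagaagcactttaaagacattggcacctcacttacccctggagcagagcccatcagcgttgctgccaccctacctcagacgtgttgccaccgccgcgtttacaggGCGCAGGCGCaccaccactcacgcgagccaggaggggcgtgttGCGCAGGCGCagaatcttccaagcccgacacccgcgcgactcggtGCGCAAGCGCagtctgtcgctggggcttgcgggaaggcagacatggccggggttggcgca
Cox6b1: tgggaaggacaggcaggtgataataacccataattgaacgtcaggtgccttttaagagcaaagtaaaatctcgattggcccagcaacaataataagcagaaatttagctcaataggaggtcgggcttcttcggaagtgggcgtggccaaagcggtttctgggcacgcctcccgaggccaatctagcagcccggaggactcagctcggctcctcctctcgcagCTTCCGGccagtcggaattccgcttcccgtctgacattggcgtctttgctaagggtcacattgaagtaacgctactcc
Of the other members past the threshold, Atp5e had the ETS word, and Ndufa1, Ndufb2, Ndufb8 and Cox5a had none of the 3 in this window.

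Other genes of the mitochondrion gave a context for the subunits. Of 45 tested assembly factors of OXPHOS, 2 rose and 3 fell, a share of 11.1% beside 46.4% of all tested genes. Ttc19, a factor of complex III, fell by 0.90 (SE 0.15) and Cox19, a copper-handling factor of complex IV, fell by 0.74 (SE 0.16), and the highest was Ndufaf8 at 0.92 (SE 0.38, adjusted p = 0.089, edgeR), a call that was lost in at least 1 other fit (highest adjusted p = 0.23). Of 7 subunits and carriers outside the rule 1 passed, or 14.3%, Atpif1, the inhibitor of ATP synthase, at 88.4, 82.2 and 104 CPM in iRGCs and 141, 156 and 142 CPM in cRGCs, which fell by 0.68 (SE 0.12, adjusted p = 0.0020, edgeR).

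Among genes that maintain and express mitochondrial DNA, the share higher in iRGCs was near that of all tested genes. Of 20 tested, 6 rose and 14 did not pass, or 30% higher, beside 23.3% of all tested genes higher and 46.4% past the threshold in either direction, with a median log2FC of 0.25. Tfam, which packages mitochondrial DNA and starts its transcription, was at 92.9, 64.9 and 79.7 CPM against 43.4, 52.4 and 46.1 CPM and rose by 0.74 (SE 0.15, adjusted p = 0.0048, edgeR). The RNA-degrading enzyme Pnpt1, the helicase Twnk and the polymerase Polg rose by 0.72, 0.70 and 0.50. Of 77 tested proteins of the mitochondrial ribosome 19 rose and 3 fell, or 28.6% in either direction, with a median of 0.19. Of those past the threshold, Mrps14 rose the most, by 0.96 (SE 0.18), and Mrps15 fell the most, by 0.53 (SE 0.22), a call that was lost in at least 1 other fit (highest adjusted p = 0.22). The counted transcripts of mitochondrial DNA itself, apart from mt-Nd6, did not pass.

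The citric acid cycle and pyruvate dehydrogenase, which supply NADH and succinate, split in both directions, with 5 of 22 higher and 5 lower, or 45.5% in all, near the 46.4% of all tested genes. Suclg2, a subunit of the GTP-forming succinyl-CoA ligase, was at 25.0, 28.8 and 21.2 CPM against 3.38, 6.28 and 5.71 CPM and rose by 2.28 (SE 0.28, adjusted p = 0.000377, edgeR). Suclg1, Idh2, Idh3g and the kinase Pdk3 rose by 0.47, 0.35, 0.35 and 0.64. Pdha1, which admits pyruvate to the cycle, fell by 0.51 (SE 0.15), and the cycle enzymes Cs, Mdh2 and Ogdh fell by 0.49, 0.42 and 0.35. The calls of Mdh2, Ogdh, Idh3g and Idh2 were lost in at least 1 of the other fits, with highest adjusted p-values of 0.22, 0.24, 0.13 and 0.105. Among 11 genes known to be induced in low oxygen, 6 rose and 1 fell, or 63.6%, beside 46.4% of all tested genes past the threshold and 23.3% higher. The glucose transporter Slc2a1 was at 573, 574 and 541 CPM in iRGCs and at 94.3, 161 and 107 CPM in cRGCs and rose by 2.22 (SE 0.19, adjusted p = 0.000205, edgeR). Adm, the highest in fold, had at most 1.67 CPM and no count in 1 cRGC library, with an adjusted p of up to 0.11 in the other fits, Egln3 rose by 2.71, and Ankrd37 fell by 1.05 (SE 0.22). Vegfa (0.11), Bnip3 (-0.20), Ddit4 (-0.30) and Car9 (0.76) did not pass. The part of the progenitor markers in these differences was not tested.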

How the data were processed

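RNA-seq libraries of sorted cells were analysed, 3 of iRGCs and 3 of cRGCs, and the 13 ATAC-seq samples were not used here. The authors mapped reads with HISAT2 2.1.0 (mm10) and quantified them with HTSeq 0.11.1 on Ensembl genes of GRCm38, and the deposited files hold these raw counts, from uniquely placed reads. HTSeq's tallies without a gene stayed out (8.09% to 16.8% of tallied alignments without a feature, 25.9% to 33.0% not unique). Symbols, biotypes and exon lengths came from GENCODE M21.

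Tests were run with edgeR 4.0.16 in R 4.3.3 (filterByExpr, TMM, quasi-likelihood, no block; biological coefficient of variation 36.3%). Not all changes of 2-fold or 4-fold could be detected, and recovery by count level was not tested. In a simulation on the 15941 tested genes, edgeR recovered 47% of 100 genes changed 2-fold and 75% of 100 changed 4-fold, and 6.87% of its calls were false. No other genes were changed in the simulation, whereas 46.4% of the tested genes passed in the data. Its recovery therefore need not hold for the data or for the members. Windows of 50 bases were matched to the GRCm38 genome, by exonic bases for mitochondrial genes and by spliced transcript, chosen after seeing the data, for nuclear ones. Promoters were those of RefSeq.

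Members, lists and tests were chosen with earlier results of these data known. Named are the mitochondrial, complex II and tissue-restricted genes, and per complex and outside list the extremes past the threshold, the most abundant member and those not tested. Other genes named were chosen after their values were seen. Results for a few genes are not reported here.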

Additional observations from a re-analysis of the deposited data

Results flagged for a closer look

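The stretch of chromosome 1 that copies the mitochondrial genome carries pseudogenes outside the set, and 6 of them had more reads than the 3 that a count of 0 allows. Summed over the 6 libraries, Gm10925, which copies mt-Atp6, had 139 reads, with 77, 2 and 10 in iRGC libraries 1 to 3 and 6, 35 and 9 in the cRGC libraries. Gm28661, which copies mt-Co2, had 102 reads, of which 65 were in iRGC library 1. Gm28437 had 68 reads, Gm29216 had 32, Gm28439 had 8 and Gm28438 had 5. The counts varied between libraries of the same population by more than 10 times in Gm10925 and Gm28661, and no control library shows what an empty locus would give. Which locus these reads came from was not tested.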

How the results depend on the processing

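The numbers of genes past the threshold were 7395 of all tested genes, 9 of the nuclear and 1 of the mitochondrial members. With an absolute log2FC above 1 required as well, they were 3688, 3 and 0. With library totals alone in place of TMM, 20 nuclear and 3 mitochondrial members passed, beside 49.8% of all tested genes, and the medians of the members were 0.15 and 0.22. Leaving out each library in turn gave 4 to 20 nuclear members, 0 to 2 mitochondrial members and 6303 to 7603 genes in all, and medians of -0.14 to 0.02 and -0.10 to 0.12. Without iRGC library 2 or cRGC library 3 there were 4 nuclear members, and without iRGC library 3 there were 20, of which 6 were among the 9. The other fits, scaled by upper quartiles or by the size factors of DESeq2, without mitochondrial genes in the scaling, on protein-coding genes alone, with DESeq2 1.42.0, with limma voom, without a filter or with at least 10 counts in every library, gave 7 to 13 nuclear members and 1 mitochondrial member. The causes were not tested.

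With the replicate block, 8 nuclear members passed, 7 of them among the 9, and 1 mitochondrial member and 6751 genes in all. Samples with the same number did not deviate together over the tested genes (r = -0.012, -0.024 and -0.055). The labels do not say whether such samples were collected together, and these correlations cannot settle it.

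The sign of some members that had not passed turned. With library totals alone, Atp5a1 was at 0.16, Atp5g3 at 0.060, Cox4i1 at 0.12, Cox6b2 at 0.062, Cox7a2 at 0.11 and Sdhc at 0.036. mt-Nd2 was at -0.00083 with limma voom and at -0.00090 with the replicate block, and mt-Nd5 at -0.0023 with protein-coding genes alone. With single libraries left out, the log2FC ran from -0.12 to 0.017 for Atp5a1, -0.49 to 0.14 for Cox6b2, -0.95 to 0.35 for Cox7a1, -0.23 to 0.020 for Cox7a2, -0.052 to 0.11 for Cox7a2l, -0.031 to 0.18 for Cox8a, -0.060 to 0.16 for mt-Cytb, -0.17 to 0.11 for mt-Nd1, -0.21 to 0.13 for mt-Nd2, -0.14 to 0.11 for mt-Nd4 and -0.10 to 0.093 for mt-Nd5.

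The log2 ratios of summed levels by library totals were 0.17 for all nuclear members, 0.26 for the mitochondrial ones, and 0.14, 0.29, 0.24, 0.041 and 0.19 for complexes I to V. By TPM they were 0.10 for all nuclear members, 0.24 for complex II, 0.23 for complex III, 0.022 for complex IV and 0.14 for complex V. From counts in place of counts per kilobase, the share of iRGCs minus that of cRGCs was 8.08 percentage points for Cox4i2, -0.818 for Atp5g1 and 0.043 for Atp5g3.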
